A study of Mus musculus with 12 samples.

Results

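Wild-type (WT) human DNMT3B was profiled in 4 independently derived lines of mouse embryonic stem (ES) cells, in 2 sets: lines 3B2 and 3B11 (set a, replicates 1 and 2) and lines i3B3 and i3B4 (set b, replicates 1 and 2). They were chosen by their labels and make up 4 of the 12 libraries of the series. All 4 lines derive from TKO cells, which lack Dnmt1, Dnmt3a and Dnmt3b, and express isoform 1 of human DNMT3B with an N-terminal Flag tag from the pPyCAGIZ vector, whose CAG promoter is active in most cell types. Per the labels, transfected cells were selected in 50 µg/ml Zeocin for 10 days and then kept in 25 µg/ml Zeocin, on gelatin, with 15% serum and 1000 U/ml leukemia inhibitory factor. The other 8 libraries are TKO lines expressing WT DNMT3A or a mutated DNMT3B. The methods describe both pooled stable lines and clones grown from single cells, and the labels do not say which kind each of these 4 lines is. The amount of DNMT3B in each line was not analysed here, and neither was an empty-vector library. Differences between the sets and any difference in how they were prepared cannot be told apart, since no line belongs to both.

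DNMT3B is a de novo methyltransferase: it places methyl groups on CpG sites that carry none. Its PWWP domain binds histone H3 trimethylated at lysine 36, a mark of transcribed gene bodies, while CpG islands at gene starts are usually kept free of methylation. DNMT1 normally copies methylation onto the new strand after replication. TKO cells have no DNMT1, so methylation that is placed in them is not copied in this way and is diluted as the cells divide. Methylation left from before the introduction of DNMT3B, and cytosines that escaped conversion, were not analysed here.

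Methylation was measured by enhanced reduced representation bisulfite sequencing (eRRBS), in which genomic DNA is cut with MspI, BfaI and MseI and bisulfite turns unmethylated cytosines into bases read as T. The deposited table gives, for each of 21867550 CpG sites and each line, the methylated reads and all reads. In the order 3B2, 3B11, i3B3 and i3B4, in which values for all lines are given throughout, the lines had 20476786, 16224222, 16496661 and 16722295 reads on CpG sites. These reads fell on 5123244, 1030180, 3584666 and 4725359 sites. Line 3B11 therefore held 15.7 reads per covered site, against 3.997, 4.60 and 3.54 in the other three lines and 2.55 to 5.18 in the remaining 8 lines of the series, and covered 4.71% of all CpG sites, against 16.4% to 23.4%. Reads carry no molecular identifiers, so repeated copies of 1 molecule cannot be recognised, and intervals from read counts cover counting error only.

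The low complexity of 3B11 was visible at single sites. Of its sites with at least 10 reads, 90.8% were read as entirely methylated or entirely unmethylated, against 57.6% in 3B2, 78.1% in i3B3 and 68.9% in i3B4. Sites read as 100% methylated made up 12.5% of such sites in 3B11, 1.16% in 3B2, 5.29% in i3B3 and 1.33% in i3B4. A single site in 3B11 was thus close to a yes or no reading, and i3B3 lay between 3B11 and the others. The readings still tracked the other lines: sites at 100% in 3B11 averaged 27.2% in 3B2, 23.1% in i3B3 and 21.2% in i3B4, and sites at 0 in 3B11 averaged 14.3%, 12.03% and 11.1%. For this reason every covered site counted equally below unless a minimum is given, so that deeply read sites gained no weight, and regions rather than sites were compared.

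DNMT3B methylated a similar fraction of the genome in all 4 lines, slightly more in set a. Averaged over sites with at least 10 reads, the methylation level was 15.3%, 14.8%, 13.7% and 11.8%. Set a reached 15.1% ± 0.347 and set b 12.7% ± 1.37 (mean ± SD, n = 2 lines each). Both lines of set a lay above both lines of set b, but the difference of 2.35 percentage points was not significant (exact permutation test, two-sided p = 0.33). It was 1.38 points without i3B4 and 3.32 without i3B3. With 2 lines against 2 this test cannot give a p below 0.33, so every such comparison below describes the spread between these lines, and no p from it can reach 0.05. Over all covered sites the order was the same, at 16.4%, 15.2%, 13.8% and 12.6%.

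Methylation varied far more with CpG density than between lines. Density was the number of CpG sites in 200 bp centred on a site. Over all covered sites, those with 3 to 5 CpGs were the most methylated class in every line, at 18.8%, 17.7%, 16.1% and 14.8%. With at least 10 reads, sites with 2 CpGs were level with them in set a (18.9% against 18.8% in 3B2, 16.92% against 16.90% in 3B11). Sites alone in their window stood at 17.6%, 16.6%, 14.2% and 13.03%. Above 5 CpGs the level declined in every line, to 16.7%, 15.8%, 14.5% and 13.3% at 6 to 8 CpGs and to 11.5%, 11.03%, 9.84% and 9.03% at 9 to 11. Dense sites, with 12 or more CpGs, had 2.25%, 3.05%, 2.03% and 1.87%. Relative to the class with 3 to 5 CpGs, dense sites kept 11.95% to 12.7% of the level in 3B2, i3B3 and i3B4 and 17.2% in 3B11. With at least 10 reads the dense level was 1.54%, 1.82%, 1.67% and 1.41%, so that the sets overlapped (difference 0.139 percentage points, exact permutation test, two-sided p = 0.67). Line 3B11 also had the largest share of dense sites among its covered sites, 12.4% against 10.2% to 10.5%, and whether that share bears on its dense level was not tested.

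Over all covered sites, the difference in percentage points was largest at sites alone in their window. There, set a was at 17.1% and set b at 13.6%, a difference of 3.49 points or 1.26-fold, against 1.18-fold at 3 to 5 CpGs. With at least 10 reads it was 2.77 points at 1 CpG and 2.78 at 2 CpGs. The 1.36-fold difference at dense sites was set largely by 3B11. Isolated sites (1 or 2 CpGs) minus dense sites gave 17.0, 14.6, 13.6 and 12.8 percentage points with at least 10 reads, and the mean was 2.63 points larger in set a (exact permutation test, two-sided p = 0.33). Without 3B2 it was 1.43 points, and without 3B11 it was 3.83. Relative to its own class of 3 to 5 CpGs, the class with 1 CpG reached 93.2% and 93.6% in set a and 87.8% and 88.3% in set b. That separation did not hold with at least 10 reads, where the shares were 96.3%, 93.7%, 89.2% and 94.2% and overlapped.

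**Figure D1:**
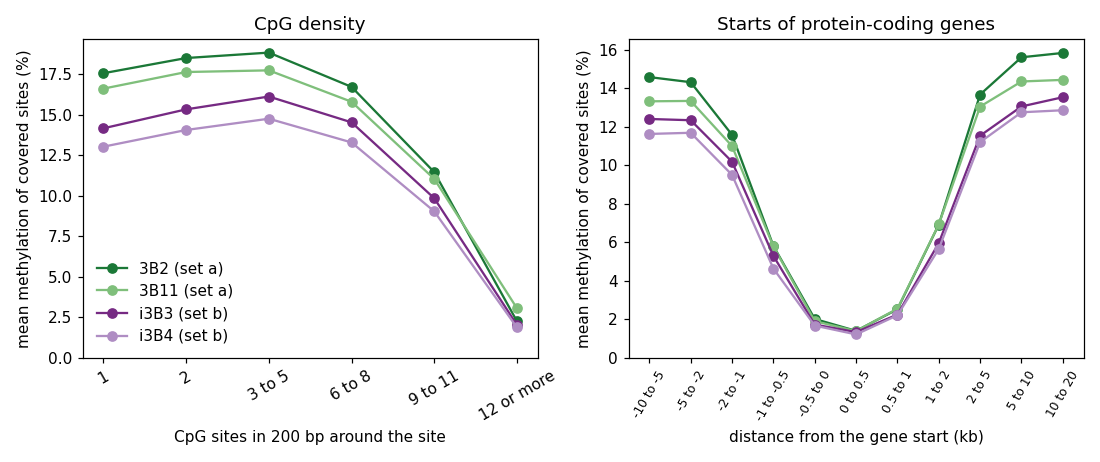
Mean methylation (%) of covered CpG sites in the 4 lines, by the number of CpG sites in 200 bp (left) and by distance from the start of protein-coding genes in kb (right). Each point is 1 line, without an error bar. All lines peak at 3 to 5 CpGs and fall to between 1.87% and 3.05% at 12 or more, and all reach their minimum, 1.21% to 1.39%, in the first 0.5 kb after the start.

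Gene starts were nearly unmethylated in every line. In the first 500 bp downstream of protein-coding gene starts the level was 1.39%, 1.39%, 1.33% and 1.21%, and from 5 to 10 kb downstream it was 15.6%, 14.4%, 13.1% and 12.8%. Dense promoter sites, with 12 or more CpGs and within 1000 bp upstream to 500 bp downstream of a start, had nearly the same level in every line, at 0.706%, 0.722%, 0.709% and 0.669% (difference between sets 0.0246 percentage points, exact permutation test, two-sided p = 0.67). At this level the sets could not be separated, and unconverted cytosine was not analysed here.

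Per gene, 6317 promoters had at least 5 covered sites in every line. Of these, 4960 stayed under 5% in all 4 lines and 639 were at 0 in all 4. None reached 25% in all lines, 7 reached 15% in all lines and 23 reached 10%. The always low group included Atp5b, encoding a subunit of mitochondrial ATP synthase, which had 0 methylated reads of 147, 133, 176 and 113 reads over 26, 12, 26 and 30 sites. If all reads were independent, these counts of 0 would allow levels of up to 2.04%, 2.26%, 1.70% and 2.65% (3 reads of the total). Neighbouring sites share molecules and copies cannot be recognised, so the true limits are wider. Among the promoters with the highest level in their lowest line was Lep, encoding the adipocyte hormone leptin, at 19.12%, 20%, 23.7% and 24.2% over 17, 5, 15 and 20 sites. Methylated reads were thus seen at Lep in each of the 4 lines, in 3B11 on only 5 sites, and at Atp5b in none. The 300 bases around the start of each gene are printed to show the CpG sites there, 19 in Lep and 18 in Atp5b. The levels above were measured over the longer promoter and not within these windows alone. The sequences come from RefSeq on GRCm38.p6, 250 bases before to 50 after the start, 5′ to 3′ on the plus strand, with CpG sites in capitals. Lep lies at chr6:29059971-29060270 and Atp5b at chr10:128083057-128083356.
Lep: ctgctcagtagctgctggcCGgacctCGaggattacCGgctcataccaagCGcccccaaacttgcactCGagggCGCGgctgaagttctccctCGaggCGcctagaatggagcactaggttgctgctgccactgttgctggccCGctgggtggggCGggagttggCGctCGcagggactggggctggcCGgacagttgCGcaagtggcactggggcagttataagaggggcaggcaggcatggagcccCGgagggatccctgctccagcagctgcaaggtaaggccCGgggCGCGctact
Atp5b: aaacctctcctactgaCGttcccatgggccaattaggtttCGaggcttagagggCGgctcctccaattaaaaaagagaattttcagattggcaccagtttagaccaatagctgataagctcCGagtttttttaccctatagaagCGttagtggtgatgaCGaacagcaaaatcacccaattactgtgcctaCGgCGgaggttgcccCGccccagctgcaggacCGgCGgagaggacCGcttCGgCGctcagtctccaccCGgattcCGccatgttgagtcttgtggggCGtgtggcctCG

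Across promoters, the number of CpG sites in the RefSeq window had a median of 24 for the 4918 tested promoters that matched a RefSeq start by symbol, of 22 for those at 0 in all lines (510 matched) and of 10 for those at 10% or more in all lines (15 matched). The promoter of endogenous Dnmt3b itself was at 1.36%, 0, 0.408% and 0.302%, on 58, 13, 49 and 51 sites. None of the 6317 promoters was called as different between the sets (limma on log2 odds centred per line, Benjamini-Hochberg adjusted p, threshold 0.05; 0% called, lowest adjusted p 0.956). At an unadjusted p under 0.05 limma counted 259 and edgeR on summed reads 29, with 0 called by edgeR. The median 95% confidence interval of a promoter's difference was ± 1.51 on the log2 odds scale. With intervals this wide, the lack of calls does not show that promoters were alike. Without 3B2, where 3B11 alone stands for set a, 5 promoters were called, and on sites covered in all 4 lines 4 were called.

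Levels by the bases around the CpG were closely shared between lines. Contexts were the 3 bases on either side of the CpG, with a context and its reverse complement merged because both strands had been collapsed, and 2079 contexts had at least 20 covered sites in every line. Between 3B2, i3B3 and i3B4, context levels correlated at a Pearson's r of 0.97 to 0.98 on the log2 odds scale. With 3B11 the r was 0.93 to 0.94. Each context rested on many sites, with a median of 2229, 438, 1561 and 2052, and on the sites covered in all 4 lines r was 0.84 to 0.86 among the 3 lines and 0.81 to 0.85 with 3B11 (1990 contexts, percent levels). Contexts are not independent replicates and share the base composition of the genome, so these correlations are descriptions. Of the 200 most methylated contexts of each line, 136 were common to all 4 lines, and of the 200 least methylated, 145. The 6 contexts with the highest level in their lowest line are printed, with the CpG in capitals, because they stayed high in every line. Likewise printed are the 6 with the lowest level in their highest line, which stayed low in every line.
Highest: gatCGatc
Highest: gttCGaac
Highest: gtaCGgga
Highest: gatCGgca
Highest: tgcCGgca
Highest: tatCGgca
Lowest: ccgCGcgg
Lowest: ccgCGccg
Lowest: cggCGccg
Lowest: cgcCGcgc
Lowest: gcgCGccc
Lowest: ccgCGcgc
The first of these, gatCGatc, was at 33.1%, 29.3%, 29.5% and 28.5%, and gttCGaac at 35.1%, 30.9%, 28.5% and 29.2%. At the other end, ccgCGcgg was at 1.17%, 0.998%, 0.625% and 0.779%. All 6 contexts printed as lowest carry further CG dinucleotides beside the central one, so that context and CpG density are not independent here. The contexts named in the study stood at 23.9%, 20.9%, 19.5% and 19.12% for attCGatg and at 3.21%, 2.64%, 3.23% and 2.37% for aggCGccc.

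Levels by the next base (position +1) are given relative to the unweighted mean over A, C, G and T in the same line. Sites followed by A were at 1.23, 1.22, 1.24 and 1.23, and sites followed by G at 1.202, 1.18, 1.21 and 1.21. Sites followed by T were at 0.949, 0.965, 0.949 and 0.950, and sites followed by C at 0.617, 0.629, 0.606 and 0.611. The order A, G, T, C was therefore the same in each line, and 3B11 was the line with the weakest contrast. Among sites with 1 to 5 CpGs the order became G, A, T, C in every line, with G at 1.23 to 1.27 and A at 1.16 to 1.18.

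**Figure D2:**
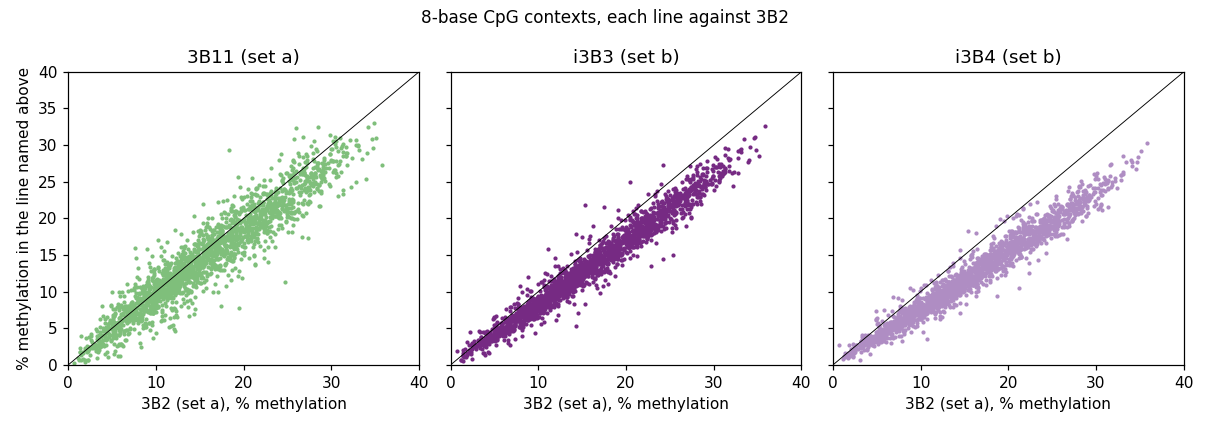
Methylation (%) of the 2079 CpG contexts in 3B11, i3B3 and i3B4 against that in 3B2, 1 point per context, with the line of equality. Points form a narrow band in all 3 panels. The band is wider for 3B11 (r = 0.94) than for i3B3 and i3B4 (r = 0.98), and it lies below equality in the lines of set b.

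None of the 2079 contexts was called as different between the sets (limma, 0% called, lowest adjusted p 0.152). At an unadjusted p under 0.05 limma counted 112 contexts, and edgeR counted 65 with 0 called. Contexts had the narrowest intervals, with a median of ± 0.30 on the log2 odds scale. Centring removes the overall difference between lines. Without it, 270 contexts were called, 268 of them higher in set a, at a median difference of 0.32 log2 odds. Without centring, the overall difference between the sets enters every context.

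Gene bodies were more methylated than intergenic DNA in every line, by a larger margin in set b. With at least 10 reads, gene bodies (from 2000 bp after the start of a protein-coding gene) exceeded intergenic sites by 1.29, 1.11, 1.74 and 1.94 percentage points. Over all covered sites, gene bodies were at 18.97%, 17.7%, 16.3% and 15.2% and intergenic sites at 17.3%, 16.3%, 14.1% and 12.5%. The ratio was 1.098 and 1.09 in set a and 1.152 and 1.22 in set b (exact permutation test, two-sided p = 0.33), and it ran from 1.07 to 1.19 over the other 8 lines. So the larger ratio in set b came with a lower intergenic level: set a exceeded set b 1.26-fold between genes and 1.16-fold in gene bodies. The ratio stayed apart between the sets at sites covered in all 4 lines, at 1.09, 1.08, 1.16 and 1.19, where 3B11 was read at the same positions as the others.

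Within genes, the 5′ end was the least methylated part in all 4 lines. Over 10159 genes divided into 10 equal parts, the first part was at 7.75%, 7.22%, 6.63% and 6.16% and the last at 20.5%, 18.8%, 17.9% and 16.6%. Most of the rise lay between the first part and the second, which was at 17.5%, 16.3%, 14.6% and 13.7%. In 3B11 the level was highest in the eighth part, at 18.98% against 18.85% in the last. In i3B4 it was highest in the ninth part, at 16.67% against 16.65% in the last. CCGG sites, which MspI cuts, were 1.54, 1.53, 1.55 and 1.57 times as methylated as other CpG sites, with little difference between lines.

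The sets also differed by the regional number of CpG sites, a comparison chosen after seeing the data. The genome was cut into 1-Mb tiles, and the 2582 tiles with enough sites were divided into 4 equal groups by how many CpG sites their sequence holds. In the poorest group, with 768 to 5779 CpGs per tile, the level was 14.9%, 14.2%, 10.9% and 9.59%. In the richest group, with 10335 to 20046, it was 16.1%, 15.0%, 14.2% and 13.2%. Set a exceeded set b 1.42-fold in the poorest group, 1.27-fold in the second, 1.18-fold in the third and 1.13-fold in the richest. The level thus declined more steeply toward CpG-poor regions in set b than in set a.

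The poorest group kept 0.926 and 0.946 of the level of the richest in set a (0.936 ± 0.0139) and 0.771 and 0.724 in set b (0.747 ± 0.0335; mean ± SD, n = 2 lines each; exact permutation test, two-sided p = 0.33). The other 8 lines ranged from 0.845 to 0.932, so that both lines of set b lay below each of the other 10 lines. The share of sites was nearly equal: the poorest group held 12.03%, 11.8%, 11.7% and 11.8% of the covered sites of the 4 lines. The separation was present among sites with 1 to 5 CpGs in 200 bp (0.774, 0.794, 0.637 and 0.598), among intergenic sites (0.840, 0.841, 0.683 and 0.658) and among gene body sites (0.787, 0.805, 0.685 and 0.640). Dense sites ran the other way within each line, with the poorest group at 8.07%, 9.03%, 6.31% and 5.71% and the richest at 1.68%, 1.78%, 1.56% and 1.51%, and set a was again relatively higher in the poorest group.

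**Figure D3:**
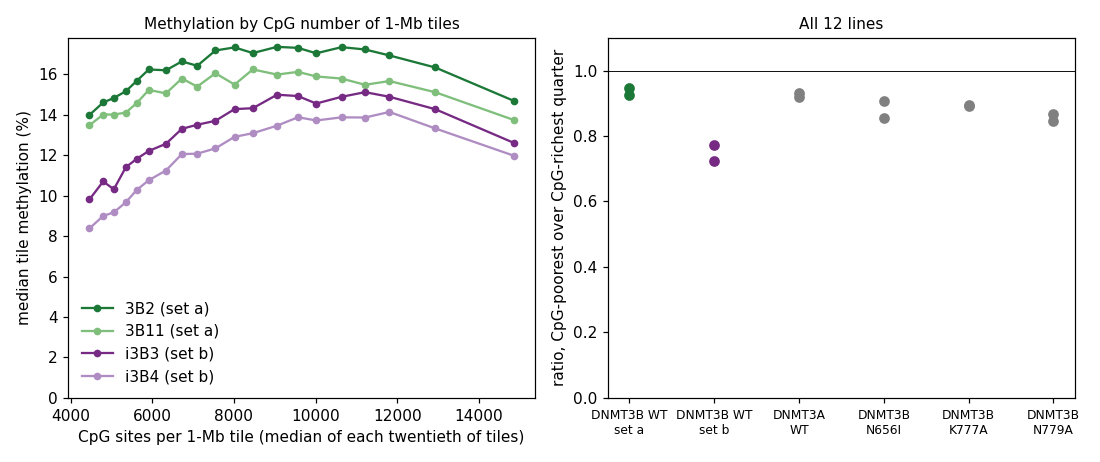
Left: median methylation (%) of 1-Mb tiles in the 4 lines, by the number of CpG sites per tile, with the tiles in 20 equal groups and 1 point per group. Right: level of the poorest of 4 groups of tiles divided by that of the richest, 1 point per line, for all 12 lines. In the poorest of the 20 groups, set a is at 13.99% and 13.5% and set b at 9.81% and 8.38%, and the ratios of set b, 0.771 and 0.724, are the lowest of the 12.

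Tile by tile, limma called none of the 2582 tiles of 1 Mb (0% called) and counted 381 at an unadjusted p under 0.05, which is 14.8% of those tested. Of these, 243 were relatively higher in set a and 138 in set b. In the poorest group they were higher in set a in 171 tiles and in set b in 6, and in the richest group in 0 and 68. Since each line was centred on its median tile, higher means higher relative to the rest of the same line. Across autosomal tiles, the level rose with the number of CpGs at a Spearman's rho of 0.23, 0.12, 0.49 and 0.57 (2409 tiles, given as a description). Tiles low in gene bodies gave a like split. In the group of 646 tiles with the lowest gene body share, 151 tiles were higher in set a and 14 in set b, and the separate parts of CpG number and gene body share were not tested.

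At 100 kb, none of 19628 tiles was called (limma, 0% called, lowest adjusted p 0.837). Limma counted 962 at an unadjusted p under 0.05 and edgeR 371, with 0 called. The median 95% interval was ± 0.86 on the log2 odds scale, so the lack of calls does not show that tiles were alike. Without 3B2, where 3B11 alone stands for set a, 738 tiles were called, 341 higher in set a and 397 in set b. Tile levels correlated at r = 0.57 to 0.58 among 3B2, i3B3 and i3B4 and at 0.32 to 0.38 with 3B11, which had a median of 42 covered sites per tile against 217, 150 and 198.

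Gene bodies were compared for 6264 protein-coding genes with at least 20 covered sites in every line. Their median levels were 19.08%, 17.1%, 16.3% and 15.3%. Their log2 odds correlated at r = 0.67 to 0.73 among 3B2, i3B3 and i3B4 and at 0.45 to 0.51 with 3B11. Lines 3B2, i3B3 and i3B4 cover the most sites. In the 2001 genes where each of them had at least 200 sites, the log2 odds correlated at r = 0.78 to 0.79. At sites covered in all 4 lines (1739 genes), all lines had equally few sites. There, r of the percent levels was 0.38 to 0.41 among the 3 lines and 0.31 to 0.35 with 3B11. Scale and genes both differ from the values above, so whether equal sites narrowed the gap between 3B11 and the others was not tested. When the genes were ranked in i3B4 alone, its 627 highest and 627 lowest genes stood at 24.1% and 10.8% in 3B2, at 22.6% and 10.1% in 3B11 and at 21.03% and 8.83% in i3B3. One line therefore separated high from low genes in each of the other three.

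Some gene bodies were high whichever line was read, with 17 at 25% or more in each line. Cep152 (chr2:125563088-125625113, minus strand, GRCm38), encoding a centriole assembly protein, led with 34.4%, 30%, 29.5% and 29.4%. It was followed by Smarca4 (chr9:21616169-21704230, plus strand), encoding the ATPase of the BAF chromatin remodeller, at 27.3%, 37.9%, 31.2% and 30.7%. Cenpf, for a kinetochore protein, was at 32.4%, 41.1%, 29.6% and 27.1%, and Gtf3c1 and Polr3a, for a transcription factor and the largest subunit of RNA polymerase III, at 36.4%, 27.3%, 27.1% and 27.0% and at 35.5%, 48.1%, 28.2% and 27.0%. The remaining genes named by the same rule were Calhm2, Pcnt and Tgm2, whose lowest line was at 26.8%, 26.3% and 26.2%. In 5 of these 8 genes (Smarca4, Cenpf, Polr3a, Pcnt and Tgm2) the highest value was that of 3B11. It rested there on 65, 27, 26, 70 and 32 covered sites.

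Gene bodies under 5% in all lines numbered 37, and those named by the rule were rich in dense CpGs. Sox17 (chr1:4490931-4497354, minus strand), a transcription factor of endoderm, was at 1.63%, 0.108%, 3.02% and 1.44%. Nr2f2, a nuclear receptor, was at 2.43%, 0.164%, 2.88% and 0.740%, and Tfap2a, a regulator of neural crest, at 2.28%, 0, 0.967% and 1.81%. Uncx and Isl2, both homeobox genes, along with Cd63, Hnrnpf and Gm49383, reached at most 2.95% in any line. Dense sites made up 42.9% to 83.1% of the CpGs of these 8 bodies, against 0 to 4.49% in the 8 always high bodies and a median of 1.44% over all 6264.

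No gene body was called as different between the sets (limma, 0% called, lowest adjusted p 0.877). At an unadjusted p under 0.05 limma counted 250 genes and edgeR 156, with 0 called, and the median 95% interval was ± 0.82 on the log2 odds scale. With intervals of this width, the lack of calls does not show that gene bodies were alike. The genes with the largest range over the lines were mostly set by 3B11. Notch4 (chr17:34564268-34588503, plus strand), encoding a Notch receptor, was at 9.46%, 0.0842%, 9.85% and 8.61%, and Dcun1d1 at 7.35%, 0.754%, 9.22% and 8.21%. In both genes the other lines lay within a narrow span and 3B11, with 54 and 60 covered sites, lay far below them. C2cd2 was at 17.0%, 2.39%, 7.92% and 10.6%, and Tbx1 at 2.18%, 0, 4.09% and 0.473%, so that here the other lines varied as well.

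Among genes of the DNA methylation machinery, 11 of 27 could be tested and none was called. Their bodies had median levels of 18.4%, 15.1%, 14.1% and 16.2%. The bodies of endogenous Dnmt3a were at 15.8%, 16.9%, 17.0% and 16.1%, and of Dnmt1 at 16.7%, 18.8%, 18.97% and 14.9%. Tet1, which oxidises 5-methylcytosine, was at 15.6%, 13.1%, 10.7% and 8.57%, with both lines of set a above both of set b (adjusted p 0.88). Morc3, which binds methylated histone H3 and silences repeats, varied most among the listed genes named, at 36.4%, 27.7%, 10.2% and 20.02% (log2 odds difference 1.22 ± 0.436, SE, limma unadjusted p 0.026, adjusted p 0.88). It did not pass the correction for all genes.

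Long neuronal genes were nearly all higher in set a. The list holds 40 genes such as Cntnap2, Dlg2 and Csmd1, which build synapses and neuronal surfaces and are not known to be used in ES cells, although expression was not analysed here. All 40 were tested, with a median gene length of 1137 kb against 77.7 kb for all genes tested. Their median levels were 15.3%, 14.2%, 10.9% and 9.47%, against 19.08%, 17.1%, 16.3% and 15.3% for all. In 39 of 40, both lines of set a were above both lines of set b, which holds for 37.0% of all gene bodies. After centring, 39 of 40 were higher in set a, against 50.7% of all, and the median difference was 0.33 log2 odds, against 0.01 for all. Both centred values of set a were above both of set b in 30 of 40, which holds for 18.1% of all gene bodies. None was called, and none had an unadjusted p under 0.05. The list was assembled with earlier results of these data known, so its direction is a description and not independent evidence.

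Named examples show the size of the shift. Cntnap2, chosen after its values were seen, was at 14.1%, 13.7%, 10.9% and 8.75%. Dlg2, chosen likewise, was at 14.9%, 12.99%, 10.4% and 8.78%. Tenm4 (chr7:96171246-96911093, plus strand), the gene of the list with the highest mean, was at 23.1%, 20.95%, 19.7% and 19.6%. After centring its log2 odds difference was -0.04, the one below 0. Under the alternatives, 222 of 1294 differences of named gene bodies, promoters and contexts changed sign, so no direction is drawn from a single gene. Il1rapl1 (chrX:86740870-88115645, minus strand), the lowest, was at 11.1%, 8.82%, 8.14% and 5.45%. In each of the 4 genes both lines of set a were higher, and the fold between 3B2 and i3B4 was smallest in Tenm4.

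**Figure D4:**
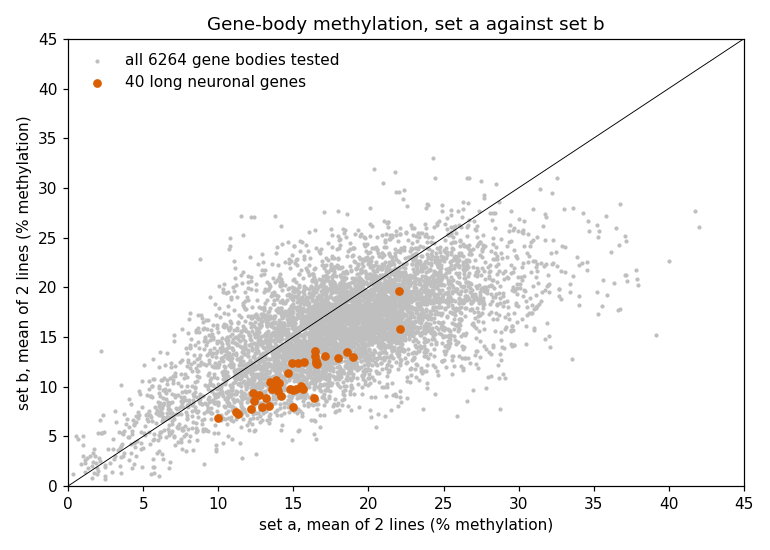
Gene body methylation (%) of the 6264 genes tested, mean of the lines of set b against mean of the lines of set a, with the line of equality. Orange points are the 40 long neuronal genes. They lie below equality and toward the lower edge of the cloud, with Tenm4 near its centre.

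Pooled over its sites and relative to all gene bodies of the same line, the neuronal list was at 0.8291, 0.859, 0.735 and 0.678 (exact permutation test, two-sided p = 0.33). Genes of 1 Mb or more (59 genes, of which 29 are in the list) were at 0.909, 0.923, 0.843 and 0.797, and the 30 outside the list were at 0.973, 0.974, 0.926 and 0.887, a smaller separation of the sets in the same direction. That split was made after the values were seen. By comparison, genes of 30 to 100 kb were at 1.03, 1.02, 1.04 and 1.07. Genes of 300 kb or more outside the list were at 0.998, 1.02, 0.979 and 0.931. Gene length, the number of CpGs in the region and membership in the list go together, and their separate parts were not tested.

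In the other lists, levels relative to all gene bodies of the same line overlapped between the sets. Housekeeping genes (44 genes, pooled) were at 22.1%, 24.8%, 19.6% and 18.7%, above all gene bodies in every line (1.16, 1.40, 1.21 and 1.23). Hox genes, which lie in CpG-dense clusters, were at 5.15%, 5.96%, 4.27% and 5.23%. Pluripotency genes were at 15.3%, 11.6%, 11.6% and 10.7%, imprinted genes at 17.2%, 17.9%, 16.0% and 14.5%, and genes of the germline at 17.8%, 17.8%, 14.4% and 15.6%. The levels themselves, before that division, did not overlap for the housekeeping, imprinted and germline lists. Relative to all gene bodies, two-sided exact permutation tests gave p = 1 for each of these lists. Of their tested bodies, 6 housekeeping, 5 Hox, 6 pluripotency, 18 imprinted and 11 germline genes, none was called.

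Single sites could be compared only at 1343 positions where each of these lines had 10 or more reads. Of these, 31 were at 25% or more in all lines, 54 in 3, 141 in 2, 207 in 1 and 910 in none. Dense sites made up 6.45% of those methylated in all lines and 53.7% of those methylated in none. Without the deepest sites of each line, 295 positions were left, of which 5 were at 25% or more and 79 at 0 in all lines. The windows of 42 bases around the 4 positions with the highest level in their lowest line are printed, on the plus strand of GRCm38 with the CpG in capitals, because these sites were methylated whichever line was read. They lie in an intron of the lincRNA gene Gm11795 (chr4:7762869-7762910), in an intron of Bcas3 (chr11:85665679-85665720), and between genes on chromosomes 6 (chr6:68457555-68457596) and 9, the latter nearest to Ccr1 (chr9:123936613-123936654).
Gm11795: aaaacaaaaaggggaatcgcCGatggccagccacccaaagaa
Bcas3: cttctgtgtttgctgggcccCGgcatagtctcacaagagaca
Chromosome 6 site: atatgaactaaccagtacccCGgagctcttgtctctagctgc
Ccr1: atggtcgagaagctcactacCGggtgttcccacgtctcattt
The site in Gm11795 was at 56.2%, 35.7%, 43.8% and 54.5% on 16, 14, 16 and 11 reads. The lowest of these values had a 95% Wilson interval of 16.3% to 61.2%, which covers the other three. The site in Bcas3 was at 52.4%, 100%, 50.0% and 31.2% on 21, 11, 10 and 16 reads, and only 3B11 was read as all methylated. The site on chromosome 6 was at 54.5%, 41.7%, 40.0% and 30.8% on 22, 12, 10 and 13 reads. The site nearest to Ccr1 was at 68.2%, 62.5%, 30% and 30.8% on 22, 24, 10 and 13 reads, and so was higher in set a.

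In 2 of the lines some chromosomes held more or less than their usual share of covered sites. In i3B3, chromosome 6 held 1.27 times its usual share of covered sites, relative to the median of all 12 lines, while the other 3 WT lines were at 0.963 to 0.994. All 15 bins of 10 Mb along chromosome 6 were raised in i3B3, at 1.26 to 1.30. In 3B11, chromosome 8 was at 1.097 and chromosome 11 at 1.09, and chromosome Y at 0.409. Chromosome X was at 0.893 in i3B3 and 0.8996 in 3B11. Whether these shares reflect the number of chromosome copies was not tested. Coverage and methylation did not move together on chromosome 6, whose level in i3B3 was 13.9%, against 13.8% over all its sites. The X chromosome was at 0.961, 0.922, 0.909 and 0.882 of the autosomal level and the Y chromosome at 0.824, 0.896, 0.714 and 0.601 (two-sided exact permutation tests, both p = 0.33). The order of the sets on both was that of CpG-poor tiles, and the ratios of poorest to richest tiles on autosomes alone were 0.920, 0.944, 0.766 and 0.718.

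**Figure D5:**
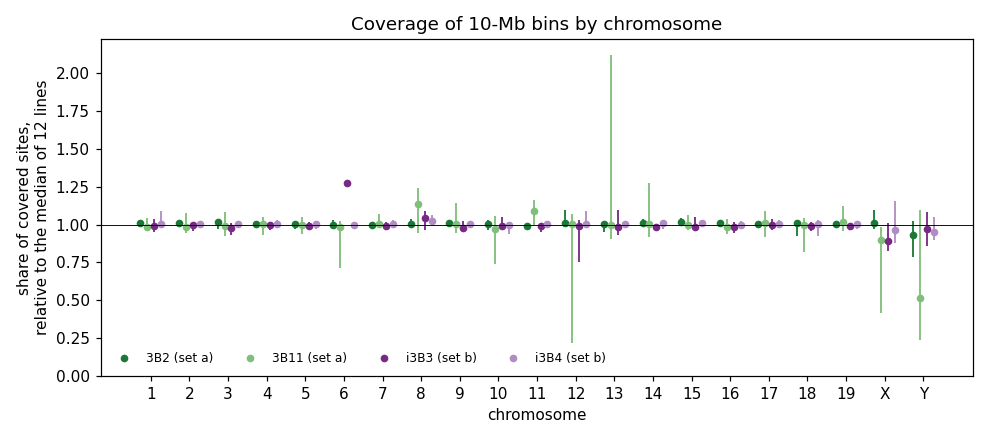
Share of covered CpG sites in bins of 10 Mb, relative to the median of all 12 lines, for each chromosome and each of the 4 lines. Points are medians over bins and bars run from the lowest to the highest bin. Chromosome 6 of i3B3 stands at 1.27 over its whole length, and 3B11 has the widest bars and a low chromosome Y.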

How the data were processed

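Per the labels and methods, the authors trimmed read pairs with cutadapt, aligned them to mm10 (GRCm38) with Bismark 0.18.1 and Bowtie 1.2, discarded pairs with signs of incomplete conversion, and collapsed both strands. The deposited values are raw counts of methylated and of all reads per CpG site and line, made by the authors without normalization or pooling, and 0 columns lacked a sample. The members and gene lists were chosen with earlier results of these data known.

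The level of a site was its methylated reads over all reads. Line levels used sites with at least 10 reads, and regions used every covered site with equal weight. Tiles (100 kb) and gene bodies needed 20 covered sites per line, promoters (1000 bp upstream to 500 bp downstream of the start) 5, and contexts 20. Genes were those of the GENCODE annotation on GRCm38. Feature levels, as log2 odds with 0.5 over the site number added to both shares, were centred on each line's median and compared with limma 3.58.1 in R 4.3.3 (moderated variances with a trend, Benjamini-Hochberg adjustment, threshold 0.05). Single values were compared by exact permutation tests over lines. edgeR 4.0.16 on summed reads was an alternative. Scripts used Python 3.11.15, NumPy 2.4.6, pandas 2.3.3 and SciPy 1.17.1. The fits were also run on simulated data, with equal numbers of changed features of each kind. A change of 1 on the log2 odds scale was called in 0 tiles, 0 gene bodies, 0 promoters and 174 contexts. A change of 2 was called in 24 tiles, 130 gene bodies, 0 promoters and 195 contexts. Among unchanged features only contexts were called, 8 and 7. Changes of these sizes could thus be missed.

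Named genes were, by a written rule, the 8 highest by their lowest line, the 8 lowest by their highest line, the 5 with the largest range over the lines and over 50 sites per line, 6 genes of the methylation machinery where measured, and the highest and lowest member of each list. One gene that the rule names is not reported here. Contexts and sites were chosen in the same way. Promoter sequences were matched to RefSeq by symbol. Non-CpG cytosines were not analysed here. The comparison by the number of CpGs per 1-Mb tile and its alternatives were chosen after seeing the data.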

Additional observations from a re-analysis of the deposited data

Results flagged for a closer look

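In groups of 4 lines, 6 of 39 measures had a line whose gap to its nearest neighbour exceeded Dixon's 95% critical value. Chance flags about 1 in 20. Line 3B2 (set a replicate 1) had the most reads on CpG sites, 20476786. Line 3B11 (set a replicate 2) stood apart in 4 measures: it had 15.7 reads per covered site, 12.4% of its covered sites in dense stretches, a relative coverage of chromosome 11 of 1.09 and a relative coverage of chromosome Y of 0.409. Line i3B3 (set b replicate 1) had a relative coverage of chromosome 6 of 1.27. No overall level and no ratio between regions was flagged.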

How the results depend on the processing

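Of 1405 values recomputed under the alternatives, 1400 stayed on their side of the threshold and 5 counts of calls rose above 0. The 4 differences in level or ratio kept their direction in all 45 of their alternatives. Leaving out 1 line and the replicate block could not reverse them, since both lines of set a lay on the same side of both lines of set b. The remaining 9, 4, 4 and 8 alternatives could have done so. Among the named genes, promoters and contexts, none of them called, 222 of 1294 differences changed sign (for example Cenpf, Pcnt, C2cd2 and Igf2), so no direction is drawn from a single one. None of the 87 named gene bodies, promoters and contexts followed here was called under any alternative. Single sites and the genes Cntnap2 and Dlg2 were not recomputed. Without set a replicate 1, 738 of the 100-kb tiles (341 higher in set a, 397 in set b) and 5 promoters were called. In that fit 3B11 alone stands for set a and is assumed to vary like the other lines. Over the fits leaving out each line in turn, called tiles ranged from 0 to 738 and called promoters from 0 to 5, and contexts and gene bodies stayed at 0. On sites covered in all 4 lines, 4 promoters were called. Without centring, 270 contexts were called, with median shifts of 0.33 for tiles, 0.25 for gene bodies, 0.46 for promoters and 0.32 for contexts on the log2 odds scale.

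With the replicate block, 3 contexts were called, all higher in set b. The labels share only the numbers 1 and 2 between the sets, and deviations of same-numbered lines did not correlate (-0.03 for gene bodies, 0.02 for tiles, 0.0013 for contexts). For differences in level or ratio the block gives the main value by arithmetic, so it is no check of them. They stood at 2.35 for mean level, 2.63 for isolated minus dense and -0.64 for gene body minus intergenic, in percentage points. The difference in the ratio of poorest to richest tiles stood at 0.19. The block changed no other call.

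Leaving out 1 line in turn, the difference in mean level ran from 1.38 to 3.32, isolated minus dense from 1.43 to 3.83, gene body minus intergenic from -0.743 to -0.537, and the tile ratio from 0.165 to 0.212. Over the other alternatives they ran from 1.98 to 3.13, from 2.34 to 2.88, from -0.956 to -0.728 and from 0.133 to 0.192. Sets of 2 lines, a median of 40 covered sites per gene body in 3B11 and the lack of a DNMT3B level among the values analysed limit what can be separated. The causes were not tested.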
